A study of Mus musculus with 2 samples.

Results

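Genes named for an immediate early response (Ier) are described here, together with 1810011O10Rik. All array probes whose gene name was Ier2, Ier3, Ier5, Ier5l or 1810011O10Rik were taken, which gave 7 probes of 5 genes out of 39429 probes and 28233 gene symbols. These 7 probes occupied 16 of 43020 gene spots on each array. Ier2, Ier3 and Ier5l had 1 probe each, and Ier5 and 1810011O10Rik had a pair of probes each. Probes were assigned to the members by gene name and not by their values.

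Immediate early genes are transcribed within minutes of a growth factor signal, without the need for new protein synthesis, because the kinases and transcription factors that activate them are already present. Their mRNAs are mostly short-lived, so the level after an hour reflects transcription, processing and decay together. Ier2 encodes a small nuclear protein, Ier3 (also called IEX-1) encodes a stress-response protein that affects cell survival, and Ier5 encodes a protein that binds the phosphatase PP2A and the heat shock factor HSF1. Ier5l is the close relative of Ier5, and 1810011O10Rik (now Tcim, C8orf4 in human) encodes a small protein that binds Chibby, an inhibitor of β-catenin.

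RNA came from immortalized mouse embryonic fibroblasts (strain C57BL/6 x B6:129 Ola) whose THOC5 alleles are flanked by loxP sites. They also carry a Cre recombinase fused to an estrogen receptor at the Rosa26 locus, and both groups share this background. The labels give the genotype as wildtype for the control and as THOC5 knockdown for the depleted cells. THOC5 is a subunit of the THO complex, which couples transcription to mRNA processing and nuclear export, and the comparison asks how the serum response differs once it has been depleted. Control cells had no tamoxifen and THOC5-depleted cells had 2 days of it per the labels (10 µM for 24 h followed by 24 h in growth medium, per the study's methods), and both were starved for 24 h before 1 h with 20% serum. On each of 2 dual-color arrays Cy3 carried the unstimulated RNA and Cy5 the serum-stimulated RNA. Because only the depleted culture was given tamoxifen, the drug, the Cre activity and the loss of THOC5 cannot be told apart. There was 1 array per condition, from 1 cell line, and the dyes were not exchanged, so serum cannot be told apart from the dye and no test between conditions was possible. A ratio of signals cannot distinguish fewer expressing cells from less RNA per cell.

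Thoc5 itself, the check of the depletion, had signals of 4808 (unstimulated) and 3047 (serum) in control cells against 546 and 455 in THOC5-depleted cells. After scaling between arrays its signal was 7.1-fold lower in unstimulated and 5.39-fold lower in stimulated depleted cells. Of 12 fibroblast marker genes, 11 were well above background in all 4 RNA samples. Their summed signals, not scaled between arrays, were 483050, 440622, 400020 and 357983 in the order control unstimulated, control serum, depleted unstimulated and depleted serum. Without scaling, the median difference (depleted over control) over all probes was itself -0.25 (log2) without and -0.26 with serum. After scaling, 2 of the 11 were lower by 2-fold or more in unstimulated depleted cells, Col3a1 at -1.13 (log2) and Pdgfra at -1.27, with Dcn at -0.97. Pdgfrb, Col1a2 and S100a4 lay between -0.42 and -0.13, and Vim, Col1a1, Fn1, Col5a1 and Thy1 between 0.02 and 0.25. Lum, the marker not well above background in all samples, had signals between 7.88 and 36.2. Fibroblast genes were therefore measured in both cultures, some of them at a lower level in the depleted one, and their part in the results was not tested. Among markers of other cell types, epithelial markers summed to between 103 and 210 with 2 of 5 well above background in all samples, endothelial markers to between 887 and 1136 with 3 of 4, and muscle markers to between 41.6 and 51.7 with 1 of 3. Of the blood cell markers, Cd3e had signals between 196 and 276, and Ptprc, Cd68 and Emr1 had signals between 5.59 and 26.0, not well above background in all samples. At that level Ptprc and Cd68 were higher in depleted cells, by 0.77 and 1.23 (log2) without serum and by 1.53 and 1.28 with it. Emr1, as dim, differed by -0.14 without and 0.33 with serum. Cd3e, the brighter and well above background in all samples, differed by -0.04 and -0.25, so these markers did not share a direction. Cdh1, Tek and Myog were well above background in no sample, and the part of such cells in the results was not tested. For 399 probes printed 10 times, the log2 ratios of a probe's spots had an SD with a median of 0.027 on the control and 0.03 on the depleted array, which is a technical error only.

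The probes are shown because the pair of Ier5 probes gave different readings and their place and base composition differ. Positions are on mm9 as the authors' files give them, and each line is a stretch of 30 bases of a probe of 60 bases, 5′ to 3′, with any polyadenylation hexamer (AATAAA or ATTAAA) or AU-rich pentamer (ATTTA) in capitals. No transcript models were used, so exon and UTR positions are not given. The Ier2 probe lies at chr8:87186214-87186273 on the minus strand, the Ier3 probe at chr17:35959528-35959587 on the plus strand and the Ier5l probe at chr2:30328157-30328216 on the minus strand. The upstream Ier5 probe lies at chr1:156945765-156945824 and the downstream one at chr1:156943530-156943589, both on the minus strand and 2235 bases apart. The 1810011O10Rik probes lie at chr8:25549048-25549107 (upstream) and chr8:25548154-25548213 (downstream), on the minus strand and 894 bases apart.
Ier2: accaagcaagaaggcccgtctagaagaggt
Ier3: tgctgtaacacagatATTTAttacgATTTA
Ier5 upstream: ctagcttctcgggactcctacggaaaagcc
Ier5 downstream: accataatcatgtacataatacatagaata
Ier5l: ctgatgttttataaattgtaaAATAAAaaa
1810011O10Rik upstream: ctgcggaaatattccatcaaggtacactga
1810011O10Rik downstream: gaatatgggggattttagaaggatgctgtg

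The Ier3 stretch (the first 30 bases of its probe) held ATTTA, a motif typical of unstable mRNAs, at 2 places. The other stretches are the last 30 bases. The Ier5l probe ended beside an AATAAA. Among 35774 gene probes, 8.0% held ATTTA, 12.9% AATAAA and 4.57% ATTAAA, all on the probe's own strand. The whole upstream Ier5 probe was 55.0% GC and the downstream one 35.0%. A match is a description of letters and not of a site in use.

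Promoters of 3 of the 5 members were matched in the RefSeq table (GRCm38.p6), and those of Ier2 and 1810011O10Rik were not. The 250 bases before the start are shown for Ier3 (chr17:35821463-35821712, plus strand), Ier5 (chr1:155099637-155099886, minus strand) and Ier5l (chr2:30474200-30474449, minus strand), since Ier3 and Ier5 had high serum ratios in control cells and Ier5l did not. Capitals mark CCAAT on either strand (read as CCAAT or ATTGG) and TATAA.
Ier3: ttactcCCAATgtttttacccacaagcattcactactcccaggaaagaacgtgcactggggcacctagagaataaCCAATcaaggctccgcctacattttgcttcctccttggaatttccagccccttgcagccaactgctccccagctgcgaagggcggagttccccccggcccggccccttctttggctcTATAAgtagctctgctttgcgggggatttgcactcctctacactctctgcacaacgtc
Ier5: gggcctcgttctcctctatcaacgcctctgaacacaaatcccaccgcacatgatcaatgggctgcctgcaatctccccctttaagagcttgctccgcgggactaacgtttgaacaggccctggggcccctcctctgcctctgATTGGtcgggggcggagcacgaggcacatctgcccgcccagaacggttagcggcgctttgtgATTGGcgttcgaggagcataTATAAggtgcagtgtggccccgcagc
Ier5l: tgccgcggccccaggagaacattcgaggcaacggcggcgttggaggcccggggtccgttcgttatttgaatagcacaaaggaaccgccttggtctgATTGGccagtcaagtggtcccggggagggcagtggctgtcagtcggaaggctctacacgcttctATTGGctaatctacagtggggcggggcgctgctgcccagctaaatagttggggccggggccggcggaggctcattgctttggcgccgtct

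All 3 promoters held CCAAT 2 times, with first letters 244 and 175 bases before the start in Ier3, 108 and 46 in Ier5, and 154 and 90 in Ier5l. TATAA was present 58 bases before the start in Ier3 and 26 bases before it in Ier5, and was not in the Ier5l window. GGGCGG, the GC box, was found 1 time in Ier3 and Ier5l and 2 times in Ier5. Among 32851 promoters of the same length searched on both strands, 33.8% held CCAAT, 22.8% TATAA and 32.7% GGGCGG. The core of the cAMP response element, TGACG, was in none of the 3 windows and in 17.8% of all promoters, and the CArG box, which binds SRF, in none and in 1.47%. GC content was 54.4% for Ier3, 60.0% for Ier5 and 62.4% for Ier5l, against a median of 52.4%.

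In control cells, 4 of the 5 members had a serum ratio (Cy5 over Cy3 signal on the same array) of 2 or more, and in THOC5-depleted cells 3 did. All 5 were well above background in all 4 RNA samples, as were 17199 genes in all, of which 2.4% reached that ratio in control and 0.762% in depleted cells. A filter with the study's limits for ratio and signal (a ratio above 4 after rounding and a Cy5 signal above 200), applied to these 17199 genes and without the study's criterion on annotation, was passed by Ier2, Ier3, Ier5 and 1810011O10Rik in control cells, where 0.541% of genes passed it (93 genes), and by Ier2 and 1810011O10Rik in depleted cells, where 0.163% did (28 genes). The genes therefore divided into Ier3 and Ier5, whose ratio was lower in depleted cells, Ier2 and 1810011O10Rik, whose ratio was not, and Ier5l, whose ratio was near 1 on both arrays.

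**Figure D1:**
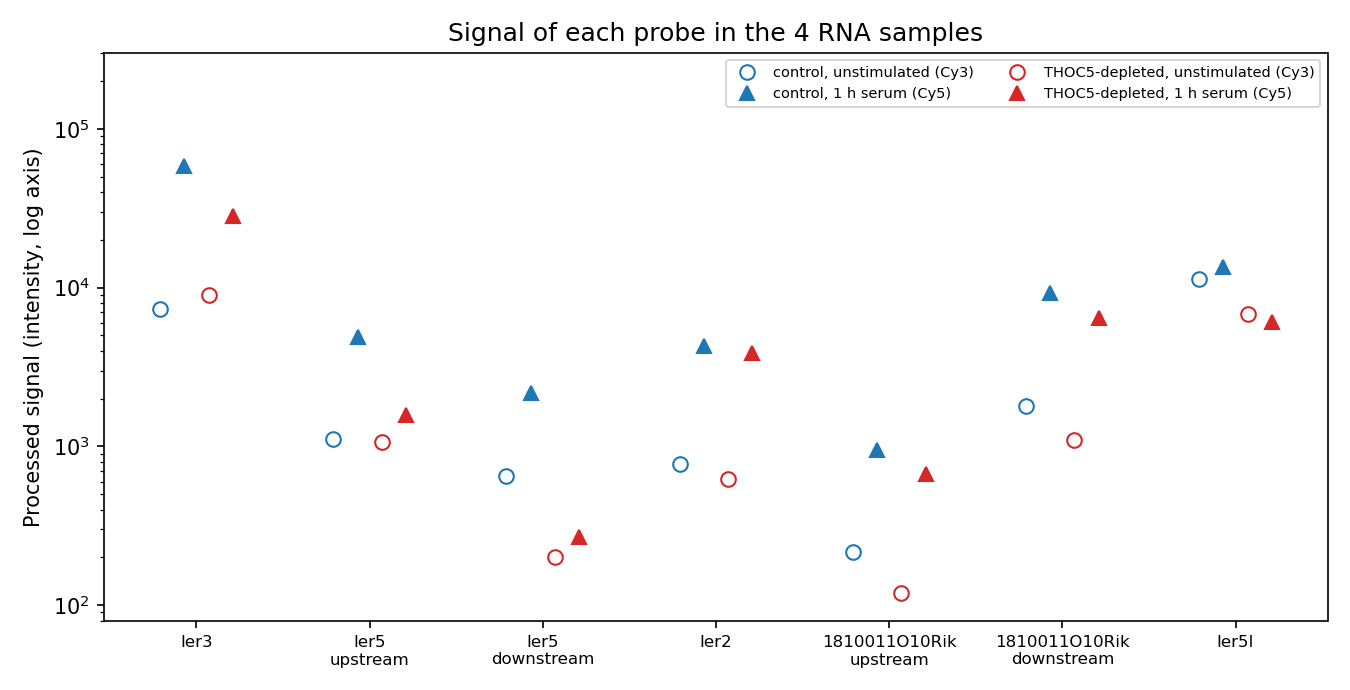
Processed signal (intensity, log axis) of each of the 7 probes in the 4 RNA samples, where open circles are unstimulated cells (Cy3), filled triangles 1 h of serum (Cy5), blue control and red THOC5-depleted cells, each point being 1 value. Ier3 reached 57880 after serum in control cells and 28366 in depleted cells, while the Ier2 triangles lie close together at 4294 and 3862.

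Ier3 had the highest serum ratio of the members in control cells. Its signals were 7331 without and 57880 with serum in control cells, and 8930 and 28366 in THOC5-depleted cells. Its serum ratio was thus 7.9 (log2 2.98) on the control and 3.18 (log2 1.67) on the depleted array, a fold reduction (control ratio over depleted ratio) of 2.49. Serum-stimulated cells had more Ier3 signal than unstimulated cells on both arrays, and the stimulated depleted sample lay between. After scaling between arrays by limma's Aquantile, Ier3 was higher by 0.56 (log2) in unstimulated depleted cells and lower there by 1.68-fold after serum, so that the level before serum and the level after it both entered the smaller ratio. By ratio Ier3 stood 40th of 17199 genes in control cells and 51st in depleted cells, so its place among all genes changed little while its ratio did.

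Ier5 had the highest fold reduction of the members. Its brightest probe, the upstream one, had signals of 1114 and 4857 in control cells and 1061 and 1575 in THOC5-depleted cells. The ratio was 4.36 (log2 2.12) in control and 1.48 (log2 0.57) in depleted cells, a fold reduction of 2.94. Ier5 stood 98th of 17199 genes by ratio in control and 519th in depleted cells, and 56th by fold reduction. Unstimulated levels of this probe differed by 0.24 (log2, depleted over control), whereas after serum it was 2.49-fold lower in depleted cells. The sign of the unstimulated value turned without scaling between arrays or with the median over both probes, where it ranged down to -0.60. With the median over both probes the control ratio was 3.81, below the limit of 4, and the difference after serum was -2.03 (log2) in place of -1.32.

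The downstream Ier5 probe gave a lower level in THOC5-depleted cells already without serum. Its signals were 650 and 2162 in control cells and 202 and 269 in depleted cells. After scaling it was 2.7-fold lower (log2 -1.43) in unstimulated and 6.74-fold lower (log2 -2.75) in stimulated depleted cells, while its serum ratio was 3.32 on the control and 1.33 on the depleted array, which gave a fold reduction of 2.5, close to that of the upstream probe. Hence the probes of Ier5 gave different level differences between the arrays, with a downstream minus upstream value of -1.67 (log2) without and -1.44 with serum, but closer serum ratios, with a value of -0.39 in control and -0.16 in depleted cells. Each of these probes was printed as 1 spot, so the spread between spots is not known for them.

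To set this beside other genes, the same difference was taken for all 2359 pairs of probes of one gene at least 1000 bases apart. The median over pairs was -0.14 (log2) without and -0.02 with serum. The downstream probe was lower by 2-fold or more in 6.06% of pairs without serum and in 3.26% with serum, and higher by 2-fold or more in 0.805% without serum. The unstimulated Ier5 value was reached or passed by 25 pairs in the lower direction. Over 3645 pairs at any distance, an alternative chosen after seeing the data, the share lower by 2-fold without serum was 4.33%. The 1810011O10Rik probes, at 894 bases, had downstream minus upstream differences of 0.20 and 0.08, and so lay near 0. Lower transcript in the downstream stretch and other properties of the probe, such as its GC content of 35.0%, cannot be told apart from 1 probe on each side.

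**Figure D2:**
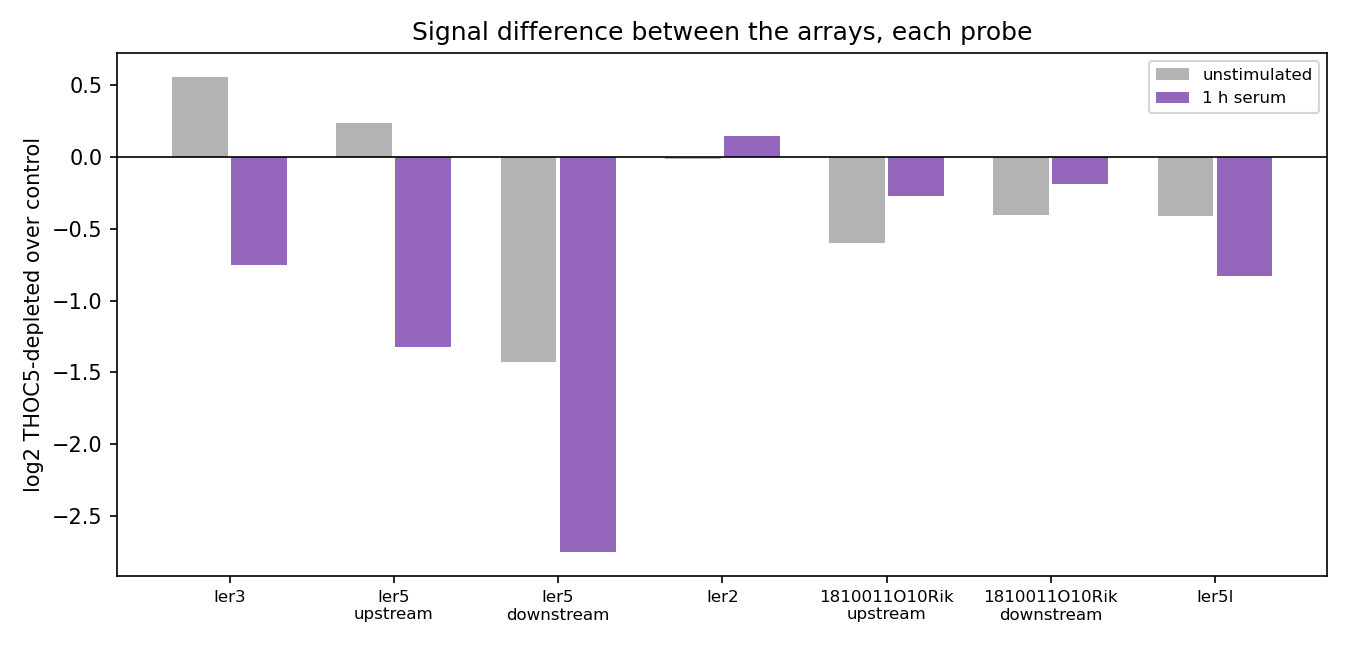
Difference in log2 signal between THOC5-depleted and control cells after scaling between arrays, for each probe, with gray bars for unstimulated cells and purple bars for 1 h of serum (each bar is 1 value from 1 array per condition). The downstream Ier5 probe lies at -1.43 and -2.75, while the upstream probe of the same gene lies at 0.24 and -1.32.

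Ier2 had a serum ratio in THOC5-depleted cells at least as high as in control cells. Its signals were 772 and 4294 in control cells and 621 and 3862 in depleted cells. The ratio was 5.56 (log2 2.48) in control and 6.22 (log2 2.64) in depleted cells, a fold reduction of 0.894. After scaling, the log2 differences between depleted and control cells were -0.01 without and 0.15 with serum, and the sign of the second turned to -0.15 without scaling between arrays. Ier2 stood 70th of 17199 genes by ratio in control cells and 11th in depleted cells, which places it among the most serum-responsive genes of the depleted culture.

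1810011O10Rik followed the course of Ier2. Its downstream probe, the brighter of the pair, had signals of 1800 and 9195 in control cells and 1090 and 6451 in THOC5-depleted cells. The ratio was 5.11 (log2 2.35) in control and 5.92 (log2 2.57) in depleted cells, a fold reduction of 0.863. The depleted sample was lower than the control sample both without serum (log2 -0.40) and with it (log2 -0.19), but the step between them was not smaller. The upstream probe gave signals of 216, 953, 120 and 667 in the same order, ratios of 4.41 and 5.55, and a fold reduction of 0.795. 1810011O10Rik stood 75th of 17199 genes by ratio in control and 14th in depleted cells.

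The downstream 1810011O10Rik probe was printed at 10 spots, the only such probe among the 7. Over these spots the control signals ran from 1734 to 1865 (median 1786) without and from 8947 to 9558 (median 9146) with serum, and the depleted signals from 1056 to 1122 (median 1090) and from 6160 to 6743 (median 6466). Every spot with serum was above every spot without it. The spot ratios ran from 5.0 to 5.19 in control cells, with an SD of 0.017 (log2, n = 10 spots), and from 5.64 to 6.14 in depleted cells, with an SD of 0.035. The ranges of the spot ratios did not overlap between the arrays, but spots of one array share their RNA and are no replicates of the condition.

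Ier5l was bright in every sample and changed little with serum. Its signals were 11311 and 13567 in control cells and 6795 and 6082 in THOC5-depleted cells. The ratio was 1.2 (log2 0.26) in control and 0.895 (log2 -0.16) in depleted cells, a fold reduction of 1.34. The difference between depleted and control cells was -0.41 (log2) without serum and -0.83 with it, which is 1.78-fold lower. It stood 3014th of 17199 genes by ratio in control and 13290th in depleted cells. Without dye normalization the ratios were 2.35 in control cells and 1.56 in depleted cells, where the ratios of all genes were higher as well.

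The size of all serum ratios depended on the dye normalization, which moved genes nearly together. Without it the log2 ratio over all 17199 genes was higher by a median of 0.82 in control and 0.74 in depleted cells, and the members were higher by 0.81 to 1.03 and by 0.74 to 0.89. All 5 members then had a ratio of 2 or more in control cells, as did 29.8% of all genes, and 4 of 5 in depleted cells, as did 16.2%. The ratios became 7.62 and 2.48 for Ier5, 16.11 and 5.9 for Ier3, 9.92 and 10.56 for Ier2, and 9.25 and 9.99 for 1810011O10Rik. Which array had the higher ratio was the same for each member with and without that step.

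**Figure D3:**
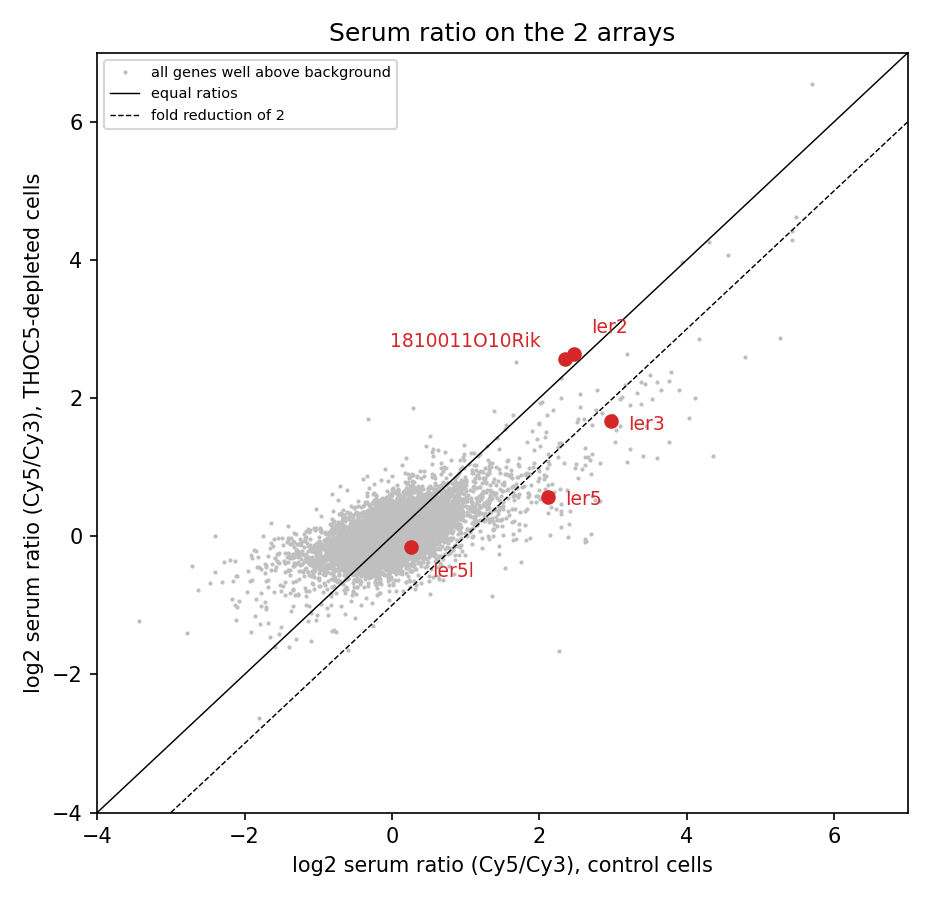
Log2 serum ratio (Cy5 over Cy3) in control cells (horizontal axis) and in THOC5-depleted cells (vertical axis) for the 17199 genes well above background in all 4 signals (gray), with the members in red, a solid line at equal ratios and a dashed line at a fold reduction of 2. Ier2 and 1810011O10Rik lie just above the solid line, Ier3 (2.98, 1.67) and Ier5 (2.12, 0.57) beyond the dashed line, and Ier5l near the origin.

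A fold reduction of 2 or more was found for 2 of the 5 members, Ier3 and Ier5, against 1.16% of all 17199 genes. Among the 93 genes that passed the 4-fold filter in control cells, however, it was found for 73.1%, and a fold reduction under 1.3 for 9.68%. Of the 4 members among these 93, Ier5 stood 33rd and Ier3 51st by fold reduction, and Ier2 and 1810011O10Rik stood 91st and 92nd. The 93 genes, with a median fold reduction of 2.65, were chosen by the control ratio that is also the numerator of the fold reduction, and on 1 array such a choice favours high values, so these places are a description only. By serum ratio in control cells these members stood in the middle and lower part, at 40 (Ier3), 62 (Ier2), 65 (1810011O10Rik) and 82 (Ier5) of 93.

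Medians over the members mix these patterns. The median log2 serum ratio of the 5 members was 2.35 in control and 1.67 in THOC5-depleted cells, beside -0.02 and -0.01 over all genes and 2.7 and 1.51 over the 93 genes. For the level without serum, 0 of 5 members were lower by 2-fold or more in depleted cells (1.44% of all genes) and 0 of 5 were higher (1.24%). These counts use the brightest probe of each gene, and the downstream Ier5 probe was 2.7-fold lower. After serum 1 of 5, Ier5, was lower by 2-fold or more (1.62% of all genes). Without scaling between the arrays, where the median over all probes was -0.26 (log2), 3 of 5 were, beside 3.02% of all genes, with Ier3 at -1.03 and Ier5l at -1.16. At a limit of 1.5-fold on the scaled levels it was also 3 of 5, beside 5.36% of all genes. The median difference after serum was -0.75 (log2) over the members, 0 over all genes and -1.06 over the 93 genes.

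**Figure D4:**
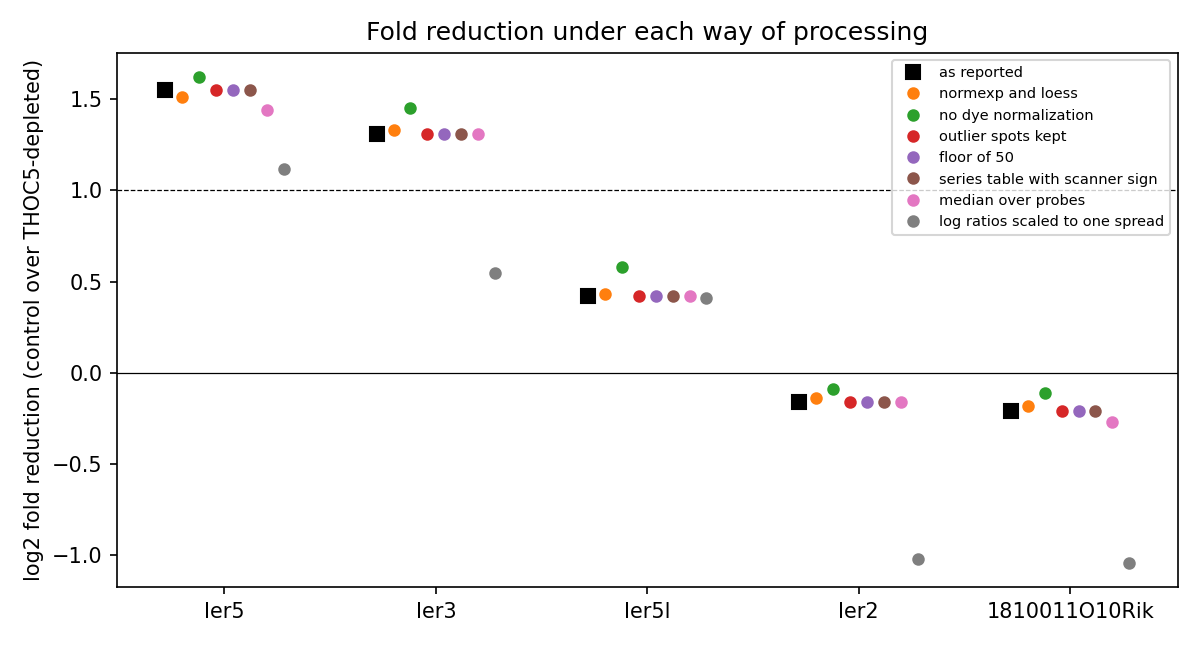
Log2 fold reduction of the serum ratio for each member under 8 ways of processing (black squares, values as reported; colored points, the alternatives), with a dashed line at a fold reduction of 2 and a solid line at none. Ier5 lies above the dashed line throughout (1.12 to 1.62), Ier3 lies below it in 1 of the 8, where both arrays' ratios were brought to one spread (0.55), and Ier2 and 1810011O10Rik lie below 0 throughout.

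The log2 ratios of all genes were spread more narrowly in THOC5-depleted cells, with a median absolute deviation of 0.138 against 0.192 in control cells. When the ratios of both arrays were brought to one spread, 1 of 5 members (Ier5, log2 1.12) had a fold reduction of 2 or more, as did 0.593% of all genes and 32.3% of the 93, while Ier3 was at 0.55, Ier2 at -1.02 and 1810011O10Rik at -1.04. The order of the members was otherwise the same, with Ier5 above Ier3 and both above Ier2 and 1810011O10Rik.

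The patterns over the 4 RNA samples were compared by the Euclidean distance of the scaled log2 signals, each centred on its mean over the 4 samples. The genes nearest to Ier2 were 1810011O10Rik, at a distance of 0.37, and Atf3, a stress-induced transcription factor, at 0.43. The gene nearest to 1810011O10Rik was Btg2, an antiproliferative immediate early gene, at 0.24, with Ier2 next. Ier2 and 1810011O10Rik were thus the nearest pair among the members. Ier5 and its relative Ier5l were 1.42 apart, and Ier5l lay farther from every other member, at 2.38 or more.

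Nearest to Ier3 were A530058O07Rik (0.12) and Areg (0.13), the latter a ligand of the EGF receptor. Areg had serum ratios of 8.55 and 3.03 in control and depleted cells. Nearest to Ier5 were Cplx1 (0.07) and Arl5b (0.14), with ratios of 4.53 and 1.45 for Cplx1 and of 4.52 and 1.69 for Arl5b. Both, like Ier5, had a ratio above 4 in control cells and below 2 in depleted cells, which follows from choosing them by these same signals. Nearest to Ier5l were Ctrc (0.05) and Elf4 (0.07), with ratios between 0.896 and 1.28. Distances over 4 samples describe these arrays only.

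Among 20 rapid immediate early genes (Fos, Jun, Egr and other families), 18 were well above background in all samples. Of these, 16 had a serum ratio of 2 or more in control and 13 in THOC5-depleted cells, with medians of 4.53 and 3.99. Fos, the subunit of AP-1 with the highest ratio of the list in control cells, went from 52.2 to 93.4, and Jund, the lowest, from 1.13 to 1.55. A fold reduction of 2 or more was found for 3 of the 18, namely Junb (2.58), Maff (2.32) and Fosl1 (2.22), and Nr4a1 and Myc lay just under that limit, at a value that rounds to 2.0. The median fold reduction of the list was 1.18, so the values of Ier2 (0.894) and 1810011O10Rik (0.863) lay below it and those of Ier3 (2.49) and Ier5 (2.94) above it.

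Because Ier5 acts on HSF1, heat shock genes were read as well. Of 15 listed, 14 were on the array and well above background, and 1 had a serum ratio of 2 or more on each array (2.4% of all genes in control and 0.762% in depleted cells). That gene was Dnajb1, an HSP40 co-chaperone, with a ratio of 4.27 on the control and 2.85 on the depleted array. The lowest in control cells was Hsph1, at 0.987 and 0.896. A fold reduction of 2 or more was found for 0 of 14, beside 1.16% of all genes, with a median of 1.1. With that share so small, the count says little about these genes. Among 15 binding partners and regulators of the members, 14 were well above background, and 0 had a serum ratio of 2 or more on either array. The highest in control cells was Mcl1, a survival protein that Ier3 binds, with a log2 ratio just under 1 and a ratio of 1.63 in depleted cells, and the lowest was Trp53, at 0.817 and 0.924.

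The nearest genes with a signal well above background within 100 kb were read for each member to see whether neighbours moved alike. The neighbour at 0.9 kb from Ier2, 4930447I22Rik, lies on the same strand and had a serum ratio of 3.8 on the control and 2.38 on the depleted array. Cacna1a, at 22.4 kb, had 0.606 and 0.933. Flot1, at 8.5 kb from Ier3, had 0.842 and 0.973, and 4833427F10Rik, at 41.9 kb, had 1.64 and 0.95. Beside Ier5, Gm9530 at 35.1 kb had 1.83 and 1.3, and Mr1 at 29.4 kb had 0.864 and 0.698. Ppp2r4, at 24.8 kb from Ier5l, had 0.975 and 0.837, and no such gene was found within 100 kb of 1810011O10Rik. Of the neighbours, only 4930447I22Rik had a ratio of 2 or more in control cells.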

How the data were processed

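RNA of immortalized mouse embryonic fibroblasts was labelled with Cy3 (unstimulated) or Cy5 (1 h serum) and hybridized to 2 dual-color Agilent arrays, 1 for control and 1 for THOC5-depleted cells. The authors deposited scanner files (Feature Extraction 10.7.3.1) that place the probes on mm9. The intensities used are the deposited processed signals, from which the software had subtracted the background and in which it had normalized the dyes of each array by a linear and a LOWESS step. No scaling between the arrays had been applied. The authors' log ratio is a log10 of Cy5 over Cy3. The table of values for the series, deposited by the authors on a log10 scale, held 0 negative values over 44397 features, with column medians of 0.0279 and 0.0222. It equalled, within 1e-06, the size of the scanner's log10 ratio for 85.1% and 86.3% of features, so its direction was taken from the scanner and it served as an alternative only. The number of columns not mapped to a sample was 0.

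Outlier spots (239 and 234) were left out, log2 signals were averaged over the spots of each probe, and the brightest probe stood for a gene. Well above background were 64.4% and 62.1% of spots in control (Cy3, Cy5) and 63.1% and 62.6% in depleted cells, and 0 spots of the 2 arrays were saturated. The number of arrays limits the precision. Levels were compared between arrays after Aquantile (limma 3.58.1, R 4.3.3; other steps in Python 3.11.15). The text names all members, Thoc5, the 2 most alike genes of each member, the highest and lowest gene of each list and the nearest neighbours, as well as genes singled out after their values were seen (the list members past a limit and the markers). The members and lists were chosen with earlier results of these data known. A blood cell marker of the lists, and the sums that hold it, are not reported here. Simulated data, with large changes planted in bright probes, tested only the averaging of spots and the calling of serum ratios and fold reductions. Scaling between arrays and the probe pairs were not covered. Alternatives were normexp (offset 50) with loess, no dye normalization, outlier spots kept, a floor of 50, the series table, the median over probes, other scalings and other size limits (1.3, 1.5 and 4).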

Additional observations from a re-analysis of the deposited data

Results flagged for a closer look

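The serum ratio of Ier5l lay on opposite sides of 1 on the arrays, at 1.2 in control and 0.895 in THOC5-depleted cells, a difference in log2 ratio of 0.42. The difference was not tested, as there was 1 array per condition, and its probe was a single spot. Without dye normalization, where the ratios of all genes were higher, both lay above 1, at 2.35 and 1.56.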

How the results depend on the processing

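No paired analysis was possible because each condition had 1 array, and for the same reason no replicate could be left out. Of 145 member values recomputed under the alternatives, 105 were counted as unmoved, 40 as moved and 0 as reversing a called value. The 105 included shifts above the median spot SD of the log2 ratios, such as Ier5l after serum from -0.83 to -0.88 (75th percentile scaling). Many of the 105 could not move, so their number is no measure of stability. No member spot was an outlier, the floor lay below every brightest-probe signal, and Ier2, Ier3 and Ier5l had no other probe for a median. Leaving out dye normalization or scaling between arrays moved every member value it was applied to. With log ratios brought to one spread, 1 member in place of 2 had a fold reduction of at least 2. The number lower by 2-fold or more in stimulated THOC5-depleted cells was 3 in place of 1 without scaling between arrays, and 3 with a limit of 1.5-fold, where the share of all genes was 3.02% and 5.36%. Without that scaling the median difference over all probes was -0.25 (log2) without and -0.26 with serum. The number with a serum ratio of 2 or more ran from 4 to 5 in control and from 3 to 4 in depleted cells, the higher counts without dye normalization, and 4 and 2 members had a ratio of 4 or more. The serum ratio of Ier3 in control cells ran from 7.89 to 16.11, the highest without dye normalization. The causes were not tested.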
